A study of Drosophila melanogaster with 2 samples.

Results

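The 10 genes described here encode core factors of the piRNA pathway of Drosophila melanogaster. The rule takes them by FlyBase symbol, as piwi, aub, AGO3, zuc, armi, rhi, del, cuff, krimp and qin, and sets no limit on a measured value, although earlier results of these data were known when the set was drawn up. All 10 were found among the 17698 genes of the adult mRNA table. The series holds 1 mRNA library and 1 small RNA library, both from total RNA of adult fruitflies, and only the mRNA library was used for these genes. Sex, strain, genotype and the number of flies are not given in the labels. There was no replicate, so no difference between conditions could be tested, and every interval below covers counting error only.

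piRNAs are small RNAs of animal gonads that guide Argonaute proteins of the PIWI clade to transposons. In the fly germline, rhi, del and cuff act together in the nucleus on the source loci, called dual-strand clusters, so that these heterochromatic loci are transcribed into precursors. The precursors are exported to nuage, a granular zone around the nucleus, where aub and AGO3 cleave transposon and cluster RNA in alternation (the ping-pong cycle), with krimp and qin as Tudor-domain partners. armi, an RNA helicase, brings piRNA precursors to mitochondria, where the endonuclease zuc cuts them. piwi carries the resulting piRNAs into the nucleus to silence the transcription of transposons.

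All 10 genes were expressed in the adult library, and the most abundant stood 11.5 times above the least abundant. Levels are given as TPM, the authors' transcript abundance normalized for transcript length and sequencing depth, summed over the listed transcripts of a gene. The members together held 475.3 TPM and 22345 counts, or 0.0854% of the 26179479 counts of the library. All 10 reached 1 TPM, as did 75.9% of all listed genes, and 8 of 10 reached 10 TPM, as did 51.9% of all listed genes. The median was 52.0 TPM for the members and 11.7 TPM over all listed genes, and 6 members lay above the upper quartile of all genes, 44.8 TPM. Only cuff and qin were below the median of all genes.

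The members fell into an order in which 4 pairs of neighbours had counting intervals that did not overlap. del was the highest at 80.0 TPM (95% exact Poisson interval of its 4279 counts, 77.6 to 82.4 TPM), followed by AGO3 at 76.0 TPM (interval 73.6 to 78.6), krimp at 71.2 TPM (68.7 to 73.8) and piwi at 68.2 TPM (65.9 to 70.5). Next came aub at 53.0 TPM (51.0 to 55.1) and armi at 51.0 TPM (49.2 to 52.8), then zuc at 29.9 TPM (27.5 to 32.4) and rhi at 29.6 TPM (27.5 to 31.7). cuff stood at 9.43 TPM (8.19 to 10.8) and qin at 6.98 TPM (6.48 to 7.51). Of the 9 pairs of neighbours in this order, 4 had intervals that did not overlap, namely piwi and aub, armi and zuc, rhi and cuff, and cuff and qin. The ratio of del to AGO3 was 1.05 (1.006 to 1.10) and that of AGO3 to krimp 1.07 (1.02 to 1.12). Both of these intervals lay just above 1, although the intervals of the single genes overlapped. The ratio of krimp to piwi, of aub to armi and of zuc to rhi each had an interval that held 1, so these neighbours could not be set apart at this depth. The top of the order depended on the sum over transcripts. With the most abundant transcript of each gene alone, krimp (71.2 TPM) and piwi (68.1 TPM) stood above del (57.2 TPM) and AGO3 (53.7 TPM). The step from armi to zuc turned when counts were divided by the longest implied transcript length, which is coarse for AGO3 and armi. On that scale AGO3 (31.3 TPM) and armi (29.2 TPM) stood below zuc (34.6 TPM).

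**Figure D1:**
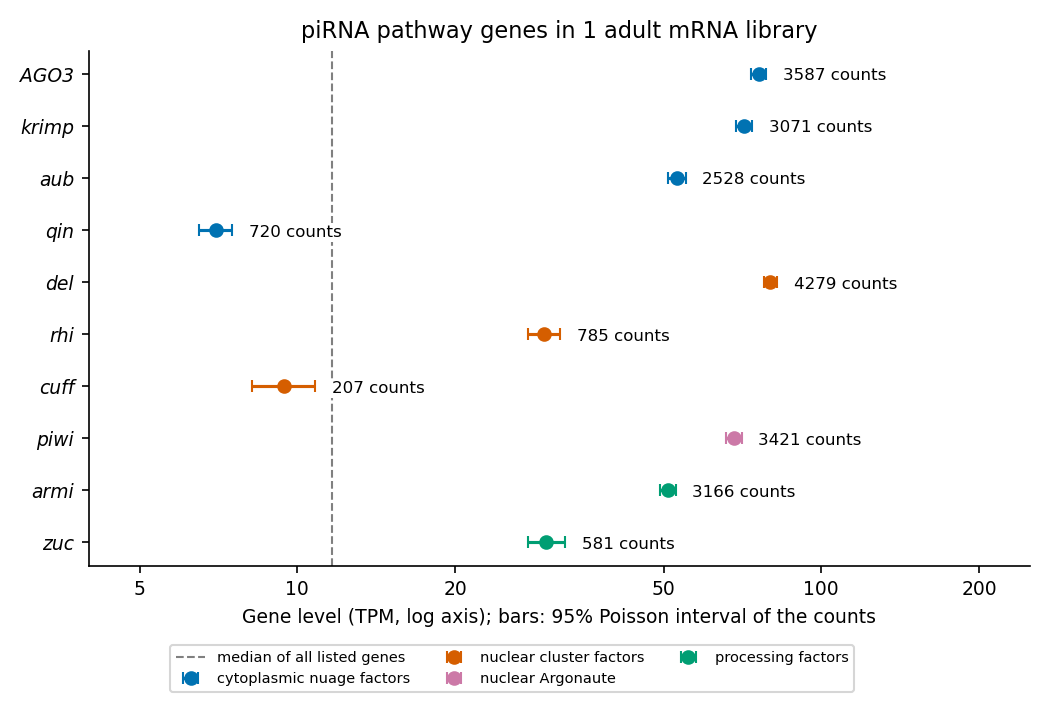
Level of each of the 10 genes in the 1 adult mRNA library (x axis, TPM on a log scale), with the 95% exact Poisson interval of its counts as a bar and its counts printed beside it. Colours mark the step of the pathway, and the dashed line is the median of all listed genes at 11.7 TPM. Nuage factors span 6.98 to 76.0 TPM and cluster factors 9.43 to 80.0 TPM, so that the ranges of these groups overlap almost entirely.

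Cytoplasmic nuage factors and nuclear cluster factors covered the same range of levels. Among the 4 nuage factors, AGO3, krimp and aub were abundant and qin was scarce, whereas among the 3 cluster factors del was abundant, rhi intermediate and cuff scarce. The median was 62.1 TPM for nuage factors and 29.6 TPM for cluster factors, a ratio of 2.10 (1.89 to 2.34 from the counting intervals of the members). The nuage factor was the higher one in 6 of 12 pairs of a nuage factor with a cluster factor. AGO3, krimp and aub were each above rhi and cuff, none was above del, and qin was below all 3 cluster factors. With the most abundant transcript alone, krimp was above del and the count was 7 of 12. With counts divided by the longest implied transcript length the count was 5 of 12, as AGO3 fell below rhi. For AGO3 that length is coarse, since it rests on a transcript with 1 count. The ratio of medians thus turned on which genes were counted. It was 1.13 without cuff, 1.39 without rhi, 3.18 without del and 1.27 with piwi placed among the nuclear factors, and it was 1.34 between geometric means. With 4 and 3 genes in 1 library, no test of this difference was made.

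The 3 cluster factors, whose proteins work as 1 complex, were expressed at unequal mRNA levels. del, which joins rhi to the transcription machinery, was 2.70 times as abundant as rhi (exact binomial interval 2.51 to 2.92). rhi, a paralogue of the heterochromatin protein HP1 that binds cluster chromatin, was 3.14 times as abundant as cuff (interval 2.69 to 3.67). cuff, which protects cluster transcripts from termination and decay, rested on 207 counts, the fewest of any member, and del exceeded it 8.48 times (interval 7.38 to 9.80). del thus lay at percentile 86.7 of all listed genes, rhi at 65.9 and cuff at 47.4.

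Among nuage factors, the ping-pong partners aub and AGO3 differed less. AGO3, which mostly carries sense piRNAs, had 3587 counts and was 1.43 times as abundant as aub (interval 1.36 to 1.51), which mostly carries antisense piRNAs and had 2528 counts. The ratio was 1.07 with the most abundant transcript alone, and its direction turned, at 0.509, when counts were divided by the longest implied transcript length, which for AGO3 is coarse. krimp, which brings aub and AGO3 together, had 3071 counts and was 1.34 times as abundant as aub (1.27 to 1.42) and 0.936 times as abundant as AGO3 (0.892 to 0.983). Against AGO3 the direction turned under the same alternatives, at 1.33 and 2.64. qin, which keeps ping-pong between aub and AGO3 rather than between copies of aub, was far lower. aub exceeded it 7.60 times, krimp 10.2 times and AGO3 10.9 times, or 3.87 times for AGO3 with the longest implied length. On the scale of counts, without division by length, qin was not the lowest member, since its 720 counts were more than the 581 of zuc and the 207 of cuff. It took 103.2 counts to make 1 TPM of qin and 26.5 counts to make 1 TPM of rhi, a ratio of 3.89, since the listed transcript of qin is longer.

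The 3 Argonautes of the PIWI clade were expressed in these adults in the range of AGO1 and AGO2, the Argonautes of miRNAs and siRNAs. piwi stood at 68.2 TPM, aub at 53.0 TPM and AGO3 at 76.0 TPM, against 41.2 TPM for AGO1 and 79.4 TPM for AGO2. The sum was 197.3 TPM over the 3 genes of the PIWI clade and 120.7 TPM over AGO1 and AGO2. These sums cover unequal numbers of genes. AGO3 was 1.84 times as abundant as AGO1 (1.76 to 1.93) and 0.957 times as abundant as AGO2 (0.918 to 0.999). piwi was 1.65 times as abundant as AGO1 (1.58 to 1.73), and aub was 1.29 times as abundant (1.22 to 1.35). AGO2 exceeded both of them, with ratios of 0.859 for piwi (0.823 to 0.896) and 0.668 for aub (0.637 to 0.700). The direction turned for piwi over AGO2 with the most abundant transcript alone (1.04) and for AGO3 over AGO1 with the longest implied length (0.785), which also gave 0.345 for AGO3 over AGO2. The most abundant transcript alone also put AGO1 lower, with ratios of 3.02 for piwi and 2.23 for aub. PIWI-clade genes are known from the gonads and AGO1 and AGO2 from most tissues. In a bulk library of adults, few cells with much of an mRNA and many cells with little of it cannot be told apart.

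Of the processing factors, armi was 1.70 times as abundant as zuc (1.56 to 1.87), at 3166 and 581 counts. With the longest implied length, which for armi rests on a transcript with 2 counts, the direction turned, at 0.843. Both lay within the range of the other members and above the median of all listed genes, at percentile 77.9 for armi and 66.1 for zuc.

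Gonad markers of both sexes were present in the same library, and none of them was at 0. Over all listed genes, 75.9% reached 1 TPM, so the counts at this limit say less than the levels. All 8 markers of the female germline reached 1 TPM, from 28.0 TPM for grk to 5775 TPM for dhd, a thioredoxin of the egg. Of the early germline markers, vas stood at 74.9 TPM and bam, a factor of germline differentiation, at 39.4 TPM, and all 5 reached 1 TPM. All 12 genes of follicle cells and chorion reached 1 TPM, from 3.16 TPM for the chorion gene Cp38 to 1361 TPM for Vm34Ca, a gene of the vitelline membrane. Of 16 genes of spermatocytes and spermatids 15 reached 1 TPM, with a median of 78.0 TPM and a maximum of 933.9 TPM for Mst87F, and all 7 accessory gland genes lay between 212.7 and 758.7 TPM. By the levels of these genes, the library held RNA of female and male gonads at once. The part of each sex in the members' levels was not tested. The 5 other genes of the somatic gonad that were listed had a median of 7.35 TPM, below that of the follicle cell list. zfh1 was the highest at 24.5 TPM, tj, which marks the somatic cells around the germline, stood at 4.76 TPM, and fs(1)Yb, the piRNA factor of ovarian somatic cells, at 0.74 TPM (44 counts, interval 0.538 to 0.993). How much of the levels in this list came from the gonad was not tested.

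**Figure D2:**
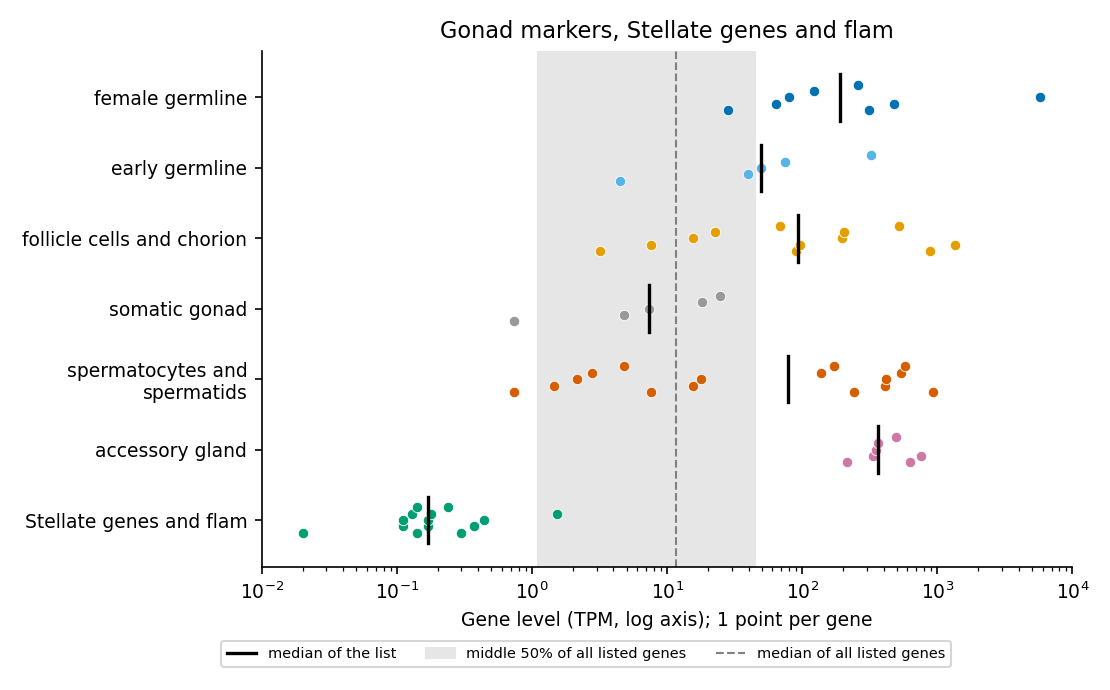
Levels of gonad marker genes, Stellate genes and the flam RNA in the adult mRNA library (x axis, TPM on a log scale, 1 point per gene). Black bars are list medians, the grey band is the middle 50% of all listed genes and the dashed line their median. The highest gene is dhd at 5775 TPM in the female germline list, Mst87F at 933.9 TPM in that of sperm genes and zfh1 at 24.5 TPM in that of the somatic gonad. The 13 Stellate genes lie at or below 0.44 TPM. Lists name marker genes, and no tissue was measured apart.

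Of the 10 members, 5 were listed with 1 transcript (zuc, rhi, cuff, krimp and qin) and 5 with several, 19 transcripts in all, the same number as in the RefSeq gene table. The transcript values are estimates, and isoforms that share exons are split by a model, so their counting intervals are too narrow. Over the 6333 genes with several transcripts and at least 100 counts, the leading transcript held 87.8% of the gene's TPM at the median (quartiles 65.7% and 97.6%). The leading share was above this median in piwi, aub and armi and below it in AGO3 and del. All of these but piwi lay between the quartiles.

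AGO3 and del each had another transcript beside the leading one with more than 20% of their TPM. In AGO3, FBtr0299880 held 53.7 TPM (70.6%, 2539 counts) and FBtr0299882 held 22.2 TPM (29.2%, 1041 counts). The start of FBtr0299882, at position 23554593 of chromosome arm 3L, lies 1332 bases upstream of the start of FBtr0299880 at 23555925, so that 70.8% of AGO3 TPM fell to the downstream start. The other transcripts of AGO3, FBtr0301725 and FBtr0299881, had 6 counts and 1 count. In del, FBtr0081502 held 57.2 TPM (71.5%, 3061 counts) and FBtr0333084 held 22.5 TPM (28.1%, 1200 counts). These transcripts of del share their start and end, at 21148417 and 21145137 on the minus strand of 2L, and FBtr0333085, which starts 129 bases upstream, had 18 counts.

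Most TPM of armi and aub fell to transcripts with 1 listed start, and the listed transcripts of piwi share 1. Start sites were not measured, and these shares rest on the estimated transcript values. In armi, FBtr0309840 held 46.7 TPM (91.6%, 2865 counts), and the start 1031 bases upstream of it held 4.29 TPM (8.42%), nearly all of it as FBtr0100641 with 299 counts. In aub, FBtr0080165 held 50.4 TPM (2401 counts), and FBtr0112793, which starts 368 bases downstream, held 2.67 TPM (5.04%, 127 counts). In piwi, FBtr0340227 held 68.1 TPM (99.8%, 3414 counts), and FBtr0080166, which has the same start but ends farther downstream, had 7 counts.
Lengths implied by the deposited values were longest for transcripts of AGO3 and armi with 1 count and 2 counts, where 0.01 and 0.02 TPM with 2 decimals set the length only roughly. Gene counts divided by these lengths gave 31.3 TPM for AGO3 and 29.2 TPM for armi.

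**Figure D3:**
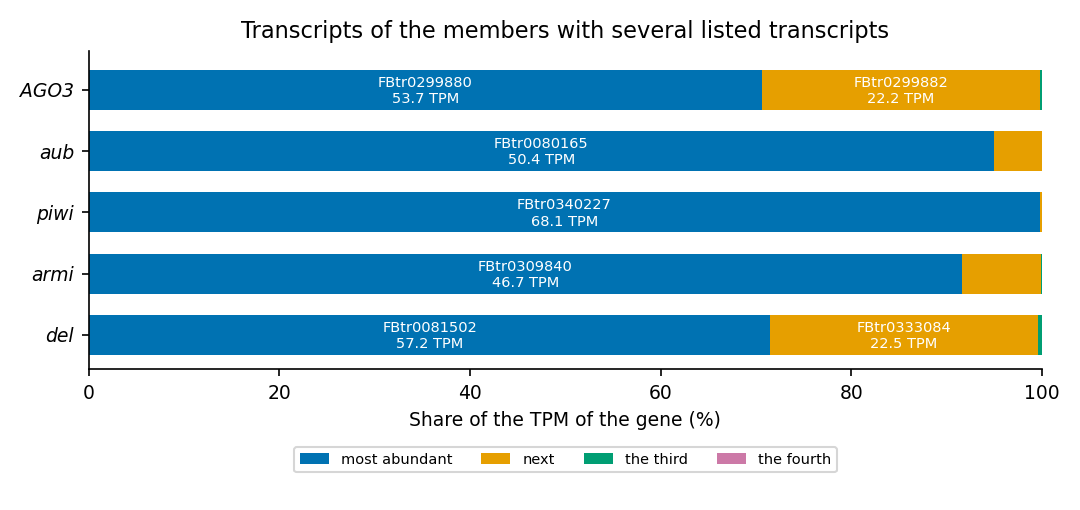
Share of each listed transcript in the TPM of its gene (x axis, percent), for the 5 members with several listed transcripts. Colours rank the transcripts within a gene, and labels give identifier and TPM for shares above 20%. AGO3 and del are split 70.6% to 29.2% and 71.5% to 28.1% between their main transcripts, while 1 transcript holds 91.6% or more in armi, aub and piwi.

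The members lie on the large autosomes, with 4 on 2L, 3 on 2R, 2 on 3L and 1 on 3R, and none on the X, which holds 15.1% of listed genes. piwi (2L, minus strand, 10982205 to 10987420) and aub (2L, minus strand, 10997819 to 11001476) lie 10398 bases apart, with TTLL4A in between. AGO3 (3L, plus strand, 23554593 to 23689640) has the longest span, 135048 bases, and zuc (2L, minus strand, 11988735 to 11989882) the shortest, 1148 bases. The remaining loci are armi (3L, plus strand, 3461317 to 3466303), del (2L, minus strand, 21145137 to 21148546), rhi (2R, minus strand, 17628491 to 17633516), cuff (2R, plus strand, 11886067 to 11887603), krimp (2R, minus strand, 16238103 to 16240722) and qin (3R, plus strand, 18591027 to 18650137). These positions come from the deposited table, and its build was not given in the sources used here. A RefSeq gene table on Release 6 had identical bounds for 9 of the 10 members, all but armi, and for 99.3% of matched genes.

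Of the 10 members, 7 overlapped another listed gene, and whether the library kept the strand is not given. In 5 of them the overlap was a short end of 10 to 191 bases with a gene on the opposite strand. piwi shared 191 bases with SCAR (49.8 TPM), aub 79 bases with TTLL4A (92.4 TPM), zuc 67 bases with CG34163 (31.4 TPM), del 10 bases with pths (110.8 TPM) and cuff 36 bases with ERp60, a protein disulfide isomerase. ERp60 had 15571 counts and 510.1 TPM beside the 207 counts of cuff, and its part in the counts of cuff was not tested. rhi lies wholly inside the span of CG10936, on the same strand, which stood at 3.94 TPM with 359 counts. The span of qin holds 5 other genes and touches CG31224 (58.7 TPM) by 17 bases. Inside it, Tssk, a kinase gene of the testis on the same strand, stood at 54.4 TPM with 1190 counts and CG7695 on the opposite strand at 89.0 TPM with 1042 counts, both above qin itself. CG14304 (0.95 TPM), CG14301 (1.56 TPM) and a proline tRNA gene (0 counts, so up to 3 counts are possible) made up the rest. AGO3, armi and krimp overlapped no listed gene.

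The other genes of the pathway, taken from 4 lists by step, had a median level near that of the members. Of 49 genes listed 48 were found, and 47 of these reached 1 TPM and 46 reached 10 TPM. Over all listed genes, 75.9% reached 1 TPM and 51.9% reached 10 TPM, the background also for the counts of each list below. The median was 52.0 TPM for the members and 53.8 TPM for the other genes of the pathway. The lists were drawn up with earlier results of these data known, and they include genes that most cells use, such as Hsp83 and me31B. The median was 60.4 TPM for other nuage and methylation factors, 43.9 TPM for other factors of cluster transcription and export, 66.2 TPM for other factors of transcriptional silencing and 54.1 TPM for other factors of processing and loading, against 11.7 TPM over all listed genes. As among the members, each list spanned more than 10-fold.

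Beside the nuage factors, all 12 other genes of nuage and arginine methylation reached 10 TPM. me31B, an RNA helicase of many RNA granules, led with 1736 TPM, followed by the helicase bel at 182.0 TPM and by squ at 131.5 TPM. The lowest were vls at 13.2 TPM, a partner of the methyltransferase csul, and the Tudor genes BoYb at 16.4 TPM and SoYb at 16.8 TPM. All 3 were above qin and below aub, krimp and AGO3.

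Beside the cluster factors, 11 of 12 other genes of cluster transcription and export reached 10 TPM. CtBP, a corepressor, stood at 247.9 TPM and Hel25E, an export helicase also called UAP56, at 245.7 TPM, both used well beyond clusters. Boot, which works with Nxf3 in the export of cluster transcripts, stood at 119.9 TPM and Nxf3 itself at 22.3 TPM. kipf, which guides rhi to chromatin in the ovary, reached 24.5 TPM, near rhi. TfIIA-S-2, a paralogue of the small TFIIA subunit, was the lowest, with 27 counts and an interval of 2.24 to 4.95 TPM.

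Beside piwi, all 12 genes found of transcriptional silencing reached 10 TPM. The highest were ctp, a dynein light chain, at 381.7 TPM, the gene of the heterochromatin protein HP1a at 316.7 TPM and the SUMO ligase gene Su(var)2-10 at 177.5 TPM. The lowest were Panx at 35.5 TPM, Su(var)3-3, a histone demethylase gene, at 37.8 TPM and egg, a histone methyltransferase gene, at 39.6 TPM. Panx, which acts downstream of piwi on chromatin, was 0.520 times as abundant as piwi (0.487 to 0.556), and piwi was 1.24 times as abundant as its partner arx (1.15 to 1.34), at 55.1 TPM.

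Beside armi and zuc, 11 of 12 other genes of processing and loading reached 10 TPM. The chaperone gene Hsp83 stood at 2094 TPM, its partner Stip1 (Hop) at 287.5 TPM and Fkbp59 at 210.3 TPM. Hen1, which methylates the 3′ ends of piRNAs, stood at 19.9 TPM and shu, a co-chaperone for loading of PIWI proteins, at 38.4 TPM. fs(1)Yb was the only gene of the 4 lists below 1 TPM.

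**Figure D4:**
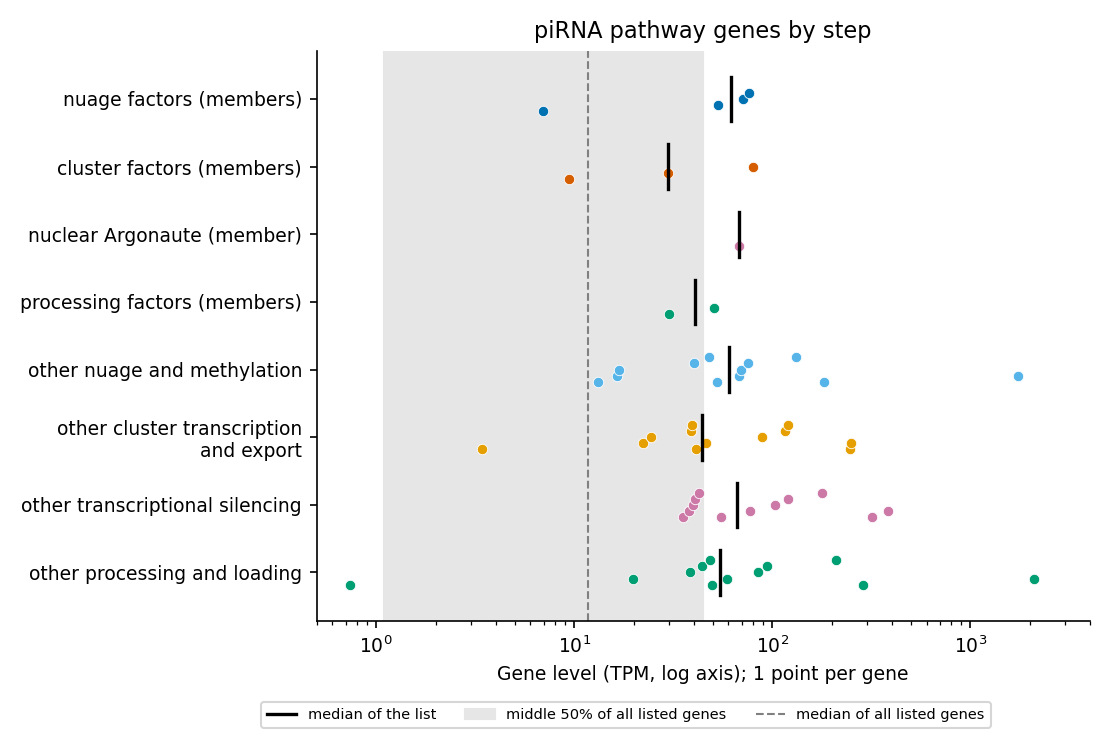
Levels of the 10 members by step of the pathway, and of 48 other genes of the pathway in 4 lists (x axis, TPM on a log scale, 1 point per gene). Black bars are medians, the grey band is the middle 50% of all listed genes and the dashed line their median at 11.7 TPM. Medians of the 4 other lists lie between 43.9 and 66.2 TPM, and cuff, qin, TfIIA-S-2 and fs(1)Yb are the genes below the dashed line.

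Stellate genes, a repeated family on the X that piRNAs of aub and AGO3 silence in the testis, were near 0 in this library. Of 14 genes listed 13 were found, none reached 1 TPM, and they had 36 counts in all. The highest were Ste:CG33236 at 0.44 TPM (8 counts), Ste:CG33237 at 0.37 TPM and Ste:CG33238 at 0.30 TPM, and the lowest was Ste12DOR at 0.02 TPM (1 count). Copies of this family are nearly identical, so that reads of several origins may have been split or dropped, and single copies are uncertain. flam, the RNA of a cluster that feeds piwi in somatic cells of the ovary, had 26 counts and 1.52 TPM (interval 0.993 to 2.23) over 10 listed transcripts. How reads that match several places were counted was not given in the sources used here, and the interval of flam does not cover it.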

How the data were processed

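The 10 genes are taken by symbol, but the set, the lists and the comparisons were drawn up with earlier results of these data known. RNA was extracted from adults with Trizol, and 1 mRNA library and 1 small RNA library were sequenced. The submitters' processing notes list CASAVA and HISAT2. Strand, counting tool, build and annotation of the mRNA library were not given in the sources used here. Transcript values, deposited by the authors, are estimated counts, TPM and FPKM. The deposited counts are whole numbers, summed to 26179479 over 34736 transcripts and were taken as rounded expected counts. The authors' FPKM were in a near fixed ratio to their TPM (1.58 to 1.60) and gave relative transcript lengths as counts per FPKM, which are coarse for transcripts near 0. Symbols came from a FlyBase table for 17560 genes (99.2%), with nos, boot, nxf3, Hop and dec-1 matched by synonym, and sov and SteXh:CG42398 not matched.

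TPM and counts were summed per gene with Python 3.11.15 and pandas 2.3.3. Exact Poisson intervals of counts at 95% were carried over to TPM, and intervals of ratios between genes (20 pairs) and of isoform shares were exact binomial (Clopper-Pearson, scipy 1.17.1). They do not cover variation between flies or libraries. Interval code was tested on simulated counts. No p-value was computed. Named were all members, AGO1 and AGO2, every gene overlapping a member, the 3 leading transcripts of a member and, by rule, the 3 highest and 3 lowest genes of each list, of which some are left unprinted. arx was added as a partner of piwi. The small RNA library, and protein and promoter sequences, were not used here.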

Additional observations from a re-analysis of the deposited data

How the results depend on the processing

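The ratio of nuage to cluster factor medians, 2.10, stayed above 1 in all alternatives run, but its size did not hold. It was 1.34 between geometric means, 1.27 with piwi among the nuclear factors, 1.76 both with zuc and armi among the cytoplasmic factors and with the most abundant transcript alone, 1.35 with counts per length of the longest transcript and 3.57 with summed counts not divided by length. With each gene left out in turn it ranged from 1.13 (without cuff) to 3.18 (without del). It was 2.10 with transcripts under 10 counts set to 0 and with 155 mitochondrial and rRNA genes left out. Among the members' levels, 9 of 10 moved beyond their counting interval with the length of the longest transcript. Of these, aub and the 5 genes with 1 listed transcript rose alike by 1.16 times, since all genes were rescaled to the same total. The level moved by more than 1.5 times only for AGO3 (0.411 of its level) and armi (0.573), whose longest transcripts had 1 and 2 counts and so a coarse implied length. With the most abundant transcript alone, 4 of 10 moved, to 0.706 for AGO3 and 0.715 for del at the most. The leading share of armi was 90.5% of counts. With a limit of 5 instead of 1 TPM, 1 of 16 lists changed its count by more than 1.5 times, the one of Stellate genes and flam, whose count went to 0. Core promoter motifs were planned and not run. No paired analysis was possible because there is 1 library. Among the members cuff had the fewest counts (207), and several genes of the lists rest on fewer.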

Other observations

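Su(Ste) genes, the Y-linked repeats whose antisense transcripts are the source of piRNAs against Stellate, were looked up after the Stellate values had been seen. All 27 listed copies were below 1 TPM, with 47 counts in all, 9 in the highest copy, and 10 copies were at 0. A count of 0 allows up to 3 counts, and reads from near-identical copies may have been split or dropped.

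Genes of the early germline list, and of the list of spermatocytes and spermatids, differed in level by more than the members did. How much of each level came from germline cells was not tested. bru1, an RNA-binding regulator of translation in the oocyte, stood at 320.8 TPM, Rbp9 at 49.1 TPM and bgcn, a partner of bam, at 4.47 TPM. In the list of spermatocytes and spermatids, the structural genes Mst84Db and Mst84Da stood at 573.8 and 541.6 TPM, and the regulators of meiotic arrest aly, can and comr at 2.14, 1.46 and 0.74 TPM.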
